A study of Homo sapiens with 8 samples.

Results

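The early lost sites are places in the genome where the progesterone receptor (PR) was listed soon after hormone was given and was no longer listed at the end of the time course. They were chosen from the deposited PR lists. The 5 lists were merged wherever their sites overlapped by 1 bp or more, and a merged site was taken when it held a site of both 5 and 30 min and none of 0 and 360 min. Of 43784 merged sites, 3272 (7.47%) met this rule. Among them 1896 were also listed at 60 min and 1376 were not, the 60 min list being left free by the rule. Because the lists of 0, 5, 30 and 360 min chose the members, what these lists show of them is given as description, and no test is made on it.

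The cells were T47D-MTVL, which derive from the human luminal breast cancer line T47D and hold a reporter under the promoter of mouse mammary tumour virus. PR was precipitated at 0 min, without stimulation, and 5, 30, 60 and 360 min after the synthetic progestin R5020 was added at 10 nM. From unstimulated cells alone, 3 more libraries mapped RNA polymerase II and histone H3 carrying 1 (H3K4me1) or 3 (H3K4me3) methyl groups on lysine 4. All cells had been kept in charcoal-treated serum and then without serum, so the unstimulated cells share that hormone-poor state with the treated ones. There was 1 library per group. Each list gives regions on hg19 without heights or read numbers, and the depth of the libraries is unknown. "Lost" therefore means not listed, which is no proof that PR was not bound. The 0 min list held 844 sites, and the 4 lists with hormone held between 22973 and 25872.

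PR is a nuclear receptor that, once it has bound a progestin, binds DNA as a dimer at hormone response elements and recruits coactivators, chromatin remodellers and the transcription machinery. In luminal breast cells many of its sites are enhancers, which carry H3K4me1. H3K4me3 marks active promoters, and RNA polymerase II lies where genes are transcribed. Micrococcal nuclease (MNase) cuts the DNA between nucleosomes, so that reads after digestion report DNA protected by nucleosomes.

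The first comparison set the early lost sites beside the early sites that stayed. These retained sites held a site of 5, 30 and 360 min and none of 0 min, with 60 min again left free, and numbered 10537. Together the classes made up 13809 early sites, of which 23.7% (95% interval 22.99 to 24.4%) were lost. The intervals of shares are exact (Clopper-Pearson), those of differences between shares are built from the exact intervals of both, and those of medians come from ranks of sites. All are over sites of single libraries and cover counting error only. A further 80 merged sites of 5 and 30 min also held a 0 min site, and only 2 of those had no 360 min site. The early lost sites accounted for 14.5% of the sites listed at 5 min, 12.8% of those at 30 min and 7.84% of those at 60 min.

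The early lost sites were listed at 60 min less often than the retained sites, in a list the rule did not use. Of the early lost sites 57.9% (56.2 to 59.6%) were listed at 60 min, against 94.9% (94.5 to 95.3%) of the retained sites and 55% of all merged sites. The difference from the retained sites was -37.0 percentage points (-38.7 to -35.2), and -24.4 points when only the wider 50% of the 5, 30 and 60 min lists was used. Read the other way, 15.9% (15.3 to 16.6%) of the early sites listed at 60 min were lost by 360 min, and 71.97% (69.9 to 73.97%) of those not listed at 60 min. Most sites missing at 60 min were missing at 360 min as well: 1376 of 1912 such sites were lost and 536 were listed again at 360 min.

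Most members were simple. At 3169 of them a single site was listed at each time, and 103 held more than 1 site of some time. At 5 members the sites of 5 and 30 min did not overlap each other and were joined through another site. The midpoints of the 5 and 30 min sites lay a median of 29 bp apart, against 23.5 bp at retained sites.

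The median gap from an early lost site to the nearest 360 min site was 18221.5 bp (quartiles 3968 and 58434 bp). Measured between midpoints, the median distance to the nearest other merged site with a 360 min site was 18569 bp, against 18513 bp over all merged sites. A gap within 10 kb was found at 1270 members (38.8%), 376 members (11.49%) had a 360 min site within 1 kb, and 21 had one within 50 bp. The members nearest to the rule's limit were a site on chromosome 3 from 195900052 to 195900863, with a gap of 2 bp to a 360 min site, followed by sites on chromosome 1 (240760142 to 240760500) and chromosome 19 (46080886 to 46081175), each with a gap of 3 bp. On the other side of the limit the smallest overlap that kept a site in the retained class was 116 bp, on chromosome 8 (66940575 to 66940783) and chromosome 9 (121766762 to 121767508), followed by 129 bp on chromosome 17 from 66375171 to 66375425. At 1 further retained site the 360 min site overlapped neither the 5 nor the 30 min site and was joined through another.

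Early lost sites were narrower than retained ones, and among the early lost sites those missing at 60 min were the narrower subset. At 5 min the median width was 277 bp (quartiles 231 and 353 bp) at early lost sites and 304 bp (251 and 384 bp) at retained sites. Over all merged sites with a 5 min site it was 270 bp. The subset listed at 60 min had 284.5 bp at 5 min and 293.5 bp at 30 min, and the subset not listed at 60 min had 266 and 257 bp. Retained sites went from 304 to 322 bp over the same interval. Site by site, the 30 min site was narrower than the 5 min site at 49.8% of the early lost sites and at 41.4% of the retained sites. The 536 retained sites that also missed the 60 min list were of similar width, with 261 bp at 5 min and 261.5 bp at 30 min. These widths come from lists the rule used, and without peak heights a narrow site cannot be told from a weak one. When only the wider 50% of the 5, 30 and 60 min lists was used, the median difference at 5 min went from -27 to -2 bp. That setting drops the narrower sites by their width, so it cannot test a difference in width.

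**Figure D1:**
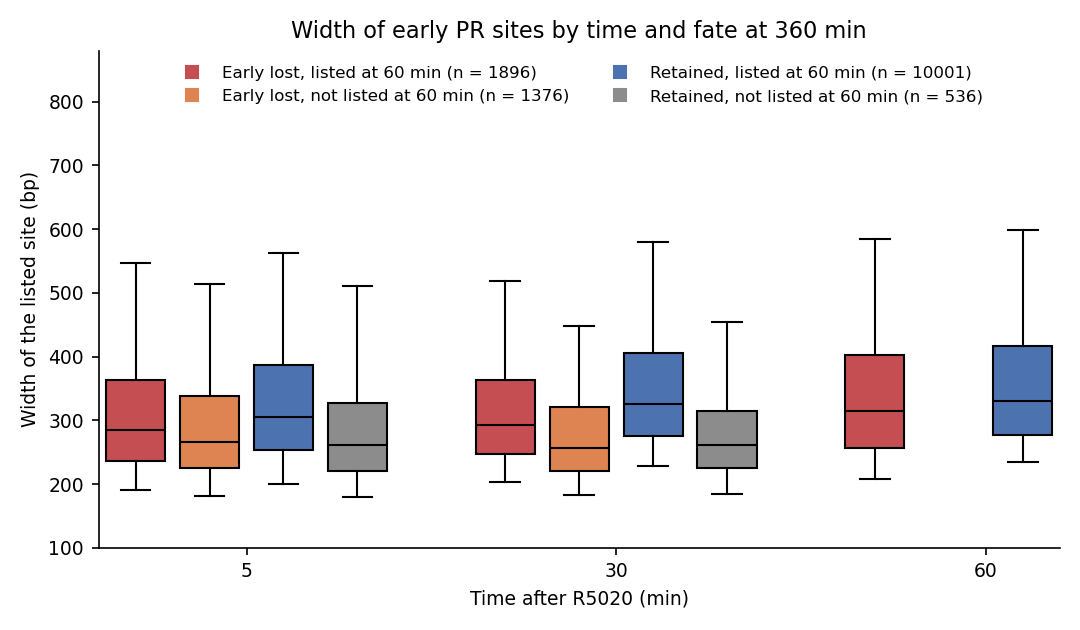
Width in bp of the listed site at 5, 30 and 60 min for early lost and retained sites, each divided by whether the 60 min list holds them (boxes give median and quartiles, whiskers the 5 and 95 percentiles of sites). The boxes overlap widely, the retained sites listed at 60 min are highest at 5, 30 and 60 min with medians of 306, 325 and 330 bp, and the classes missing at 60 min are lowest, between 257 and 266 bp.

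Wide sites were among those lost. The widest 5 min sites among members listed at 60 min lay on chromosome 16 from 17067390 to 17068553 (widths of 1163, 494 and 646 bp at 5, 30 and 60 min), chromosome 20 from 49343655 to 49344665 (1010, 479 and 267 bp), chromosome 10 from 115425370 to 115426371 (954, 484 and 621 bp), chromosome 8 from 81877131 to 81878020 (889, 423 and 626 bp) and chromosome 10 from 104528993 to 104530298 (869, 459 and 681 bp). All 5 overlapped H3K4me1 regions, and those on chromosome 20 and at 115 Mb of chromosome 10 also overlapped RNA polymerase II regions. Each was widest at 5 min, the time whose width was used to pick them.

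The leading 30 min widths among members listed at 60 min belonged to other sites. On chromosome X from 13047109 to 13047995 the width went from 305 bp at 5 min to 886 bp at 30 min and 789 bp at 60 min, and on chromosome 11 from 104198632 to 104199443 from 208 to 811 and then 510 bp. Neither lay in a region of the 3 chromatin lists, nor did the site on chromosome 10 from 127519146 to 127520185 (652, 880 and 924 bp). The leading 5 at 30 min were completed by sites in H3K4me1 regions on chromosome 6 from 10314587 to 10315443 (726, 818 and 281 bp) and chromosome 11 from 17833902 to 17834819 (777, 804 and 452 bp). The last of these had a 360 min site 318 bp away, and the chromosome X site had one 454 bp away.

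Among members not listed at 60 min, a site on chromosome 3 from 70854564 to 70855659 led at 5 min (1070 bp) and came next to the lead at 30 min (805 bp), outside all 3 kinds of chromatin region. Its nearest 360 min site was 935 bp away. The leading 30 min site of this subset, on chromosome 8 from 109596213 to 109597092, had 879 bp at 30 min and 258 bp at 5 min. On chromosome 20 from 45932520 to 45933527, in H3K4me1 and RNA polymerase II regions, the width went the other way, from 1007 bp at 5 min to 203 bp at 30 min. The next widest at 5 min were on chromosome 11 from 28540031 to 28540875 (844 and 436 bp), chromosome 8 from 40248335 to 40249157 (799 and 394 bp) and chromosome 7 from 148087274 to 148088057 (782 and 489 bp). At 30 min they were on chromosome 2 from 144122562 to 144123355 (718 and 793 bp), chromosome 16 from 53920119 to 53920911 (181 and 792 bp) and chromosome 5 from 72564659 to 72565338 (230 and 679 bp). The chromosome 5 site stood far from any 360 min site, at 94582 bp.

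The second comparison asked in what chromatin the early lost sites lay before hormone, which the rule did not use. H3K4me1 regions held 1715 of them, 52.4% (50.7 to 54.1%), against 42.1% of all merged sites and 59.9% (58.9 to 60.8%) of the retained sites. RNA polymerase II regions held 299, 9.14% (8.17 to 10.2%), against 6.99% of all merged sites and 12.2% (11.6 to 12.8%) of the retained ones. H3K4me3 regions held 154, 4.71% (4.01 to 5.49%), against 4.1% of all merged sites and 5.95% (5.51 to 6.42%) of the retained ones. None of the 3 kinds was present at 1506 early lost sites, 46.0% (44.3 to 47.8%), against 56.7% of all merged sites and 38.7% of the retained ones.

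The early lost sites thus lay between the retained sites and the rest. The difference from the retained sites, lost minus retained, was -7.47 percentage points for H3K4me1 (interval -9.44 to -5.50), -3.04 points for RNA polymerase II (-4.20 to -1.83) and -1.24 points for H3K4me3 (-2.09 to -0.34). The H3K4me1 share was lower on 21 of 23 chromosomes, the RNA polymerase II share on 17 and the H3K4me3 share on 13. Against all other merged sites the early lost sites were higher by 11.1 points for H3K4me1 (9.34 to 12.9) and by 2.32 points for RNA polymerase II (1.32 to 3.39), and for H3K4me3 the interval included 0 (-0.074 to 1.46). The median merged width was 357 bp at early lost, 399 bp at retained and 301 bp at all other merged sites, and a wider site touches a region more easily. With midpoints counted instead, the differences from retained sites were -8.36 points for H3K4me1, -2.29 for RNA polymerase II and -0.79 for H3K4me3. Against all other merged sites the part of width was not tested.

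Early lost sites lay in H3K4me1 regions more often than each of 3 other classes compared. The H3K4me1 share was 36.2% (35.1 to 37.3%) at the 7371 sites of 5 min alone, 35.9% (33.8 to 38.1%) at the 2005 sites of 30 and 60 min only and 35.0% (33.7 to 36.4%) at the 4653 sites of 30, 60 and 360 min without 5 min. The early lost share was higher than each of these on all 23 chromosomes, by 16.2 points (14.2 to 18.3), 16.5 points (13.8 to 19.2) and 17.4 points (15.2 to 19.6). A wider merged site touches a region more easily, and the median merged width was 357 bp at early lost sites, 234 bp at 5 min alone, 327 bp at 30 and 60 min only and 366 bp at the sites of 30, 60 and 360 min. The part of width in these differences was not tested.

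Members listed at 60 min lay in each kind of region more often than members not listed. RNA polymerase II regions held 11.2% (9.85 to 12.7%) of the members listed at 60 min and 6.25% (5.03 to 7.66%) of those not listed, a difference of 4.98 points (3.01 to 6.92). For H3K4me3 the shares were 5.75% (4.74 to 6.89%) and 3.27% (2.40 to 4.35%), a difference of 2.48 points (1.00 to 3.92). For H3K4me1 they were 54.0% and 50.2%, a difference of 3.79 points (0.28 to 7.29). With 60 min held equal, members listed at 60 min were still below the retained sites listed at 60 min for H3K4me1, with a difference of -6.28 points (-8.74 to -3.82), while for RNA polymerase II and H3K4me3 the intervals of the difference included 0 (-2.74 to 0.43 and -1.47 to 0.88). Among sites missing at 60 min, all 3 intervals included 0; for H3K4me1 the difference of -2.21 points had an interval of -7.27 to 2.88.

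Seen as a rate of loss, 21.4% (20.5 to 22.3%) of the early sites in H3K4me1 regions were lost and 26.9% (25.8 to 28.1%) of those outside. In RNA polymerase II regions 18.9% (16.998 to 20.9%) were lost and outside 24.3% (23.6 to 25.1%). For H3K4me3 regions the shares were 19.7% (16.98 to 22.7%) inside and 23.9% (23.2 to 24.7%) outside. The rate was 17.8% (15.4 to 20.3%) at the 990 early sites with H3K4me1 and RNA polymerase II but no H3K4me3, and 27.0% (25.8 to 28.2%) at the 5580 sites with none of the marks. The 51 early sites with H3K4me3 alone and the 69 with RNA polymerase II alone were too few to place, with 29.4% (17.5 to 43.8%) and 29.0% (18.7 to 41.2%).

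The rate of loss in and outside H3K4me1 regions was also read within quartiles of the 5 min width, a width from a list the rule used. As a description, loss was 31.7% among the narrowest early sites (117 to 245 bp), then 24.1% and 20.2%, and 18.8% among the widest (378 to 1565 bp). The lower width of early lost sites was itself nearly absent in the wider 50% of the lists, at -2 bp (interval -9.62 to 6.54). Since that setting removes narrow sites by width, the smaller value is a description and no test of the width difference. Within the narrowest quartile 29.2% (27.0 to 31.4%) of the sites in H3K4me1 regions and 34.1% (31.9 to 36.4%) of those outside were lost, and within the widest 17.2% (15.6 to 18.8%) and 22.0% (19.6 to 24.5%). The rate was lower in H3K4me1 regions in each of the 4 width quartiles; in the third the intervals overlapped, at 19.01% (17.3 to 20.8%) and 22.0% (19.8 to 24.2%).

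**Figure D2:**
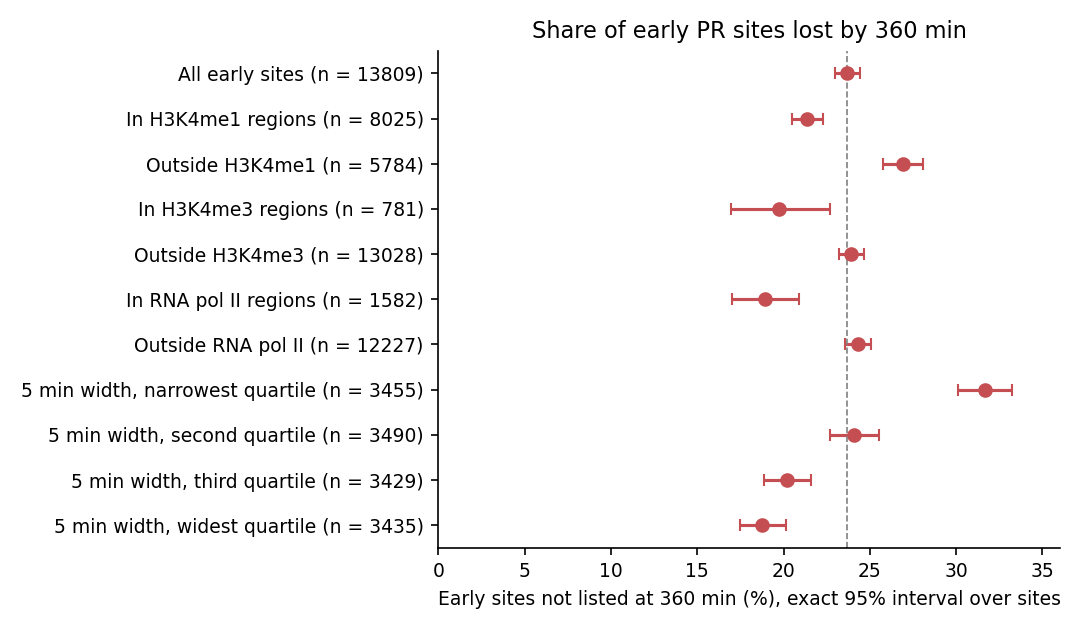
Percent of early sites (5 and 30 min, not 0 min) that were not listed at 360 min, with exact 95% intervals over sites, by overlap with chromatin regions of unstimulated cells and by quartile of 5 min width; the dashed line is the rate over all 13809 early sites. Loss ranges from 18.8% among the widest sites to 31.7% among the narrowest, and is lower inside than outside H3K4me1, H3K4me3 and RNA polymerase II regions.

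The widest member of each chromatin combination shows the range of settings. With all 3 kinds of region it was the site on chromosome 16 from 85643407 to 85644246, with 839, 305 and 441 bp at the 3 times. With H3K4me1 and H3K4me3 it was on chromosome 1 (234741720 to 234742305), and with H3K4me3 and RNA polymerase II on chromosome 2 (144094122 to 144094702). The widest with H3K4me3 alone was on chromosome X (13706486 to 13707153) and with RNA polymerase II alone on chromosome 8 (28244262 to 28245031). The widest members with H3K4me1 alone, with H3K4me1 and RNA polymerase II and with none are among the sites named above, on chromosomes 10 (104528993 to 104530298), 20 (49343655 to 49344665) and 3.

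The third comparison used the MNase reads that the authors tabulated for the 60 min list, without hormone and with R5020. The table does not give the time of R5020 for these reads; it is taken here as 60 min, the time the series' design text gives for its nucleosome libraries. The comparison covers only members listed at 60 min: their 1896 merged sites hold 1916 sites of the 60 min list, 1915 of them with a ratio. At early lost sites the ratio, unstimulated over R5020, had a median of 1.22 (quartiles 0.98 and 1.54) in the authors' deposited table, and at retained sites 1.39 (1.10 and 1.79). On the log2 scale the difference of these medians, from the authors' deposited table, was -0.19 (-0.21 to -0.16). Ratios over 2, where hormone-treated cells had the fewer reads, made up 9.40% of early lost sites, 17.1% of retained sites and 13% of all 60 min sites in the authors' deposited table. Ratios below 1 in the authors' deposited table, more reads after hormone, were found at 25.9%, 15.9% and 20.9%, and ratios above 1 at 73.2%, 83.2% and 78%. In the authors' deposited table the early lost median was the lower one on 21 of 23 chromosomes. The exceptions, again by the authors' deposited table, were chromosomes 18 (1.39 and 1.38) and 19 (2.04 and 1.88), with 25 early lost sites each. Medians below the retained one were not confined to early lost sites. The authors' deposited table gave 1.25 (1.23 to 1.26) where 30, 60 and 360 min were listed without 5 min, with 8.07% of ratios over 2. For 30 and 60 min only the authors' deposited table gave 1.16, and for 60 min alone 1.23.

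In reads per 100 bp, the classes differed before hormone. Unstimulated cells had a median of 27.9 normalized reads per 100 bp at early lost sites and 31.1 at retained sites in the authors' deposited table, and R5020-treated cells had 22.7 and 22.1. Early sites listed at 60 min were therefore also divided into quartiles of unstimulated reads per 100 bp. The ratio from the authors' deposited table was lower at early lost sites in each, at 1.015 and 1.15 in the lowest quartile, 1.23 and 1.36 in the next, 1.255 and 1.42 in the third, and 1.475 and 1.59 in the highest. By quartile of 60 min width the early lost median in the authors' deposited table was between 1.19 and 1.24 and the retained one between 1.35 and 1.40.

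The direction was the same in and outside H3K4me1 regions. In H3K4me1 regions the medians from the authors' deposited table were 1.39 (interval 1.34 to 1.42) at early lost sites and 1.54 (1.53 to 1.56) at retained sites, and outside them 1.08 (1.06 to 1.11) and 1.18 (1.17 to 1.20). At the 839 early lost sites with none of the 3 kinds of region the value from the authors' deposited table was 1.08 against 1.17. In RNA polymerase II regions it was 1.825 (1.74 to 1.97) against 2.01 (1.96 to 2.06) in the authors' deposited table. H3K4me3 regions went the other way, with 2.01 (1.84 to 2.43) at 110 early lost sites and 1.88 (1.78 to 1.97) at retained sites in the authors' deposited table, and these intervals overlap. Within all 3 kinds of region the early lost median in the authors' deposited table was also the higher one, 2.44 (2.01 to 2.84) at 66 sites against 2.13 (2.05 to 2.24), as it was with H3K4me3 and RNA polymerase II but no H3K4me1 (3.075 at 12 sites against 1.82). The 12 sites had an interval of 1.77 to 4.10. Without RNA polymerase II the early lost median in the authors' deposited table was the lower one, at 1.40 (21 sites, 1.16 to 1.84) against 1.52 with H3K4me1 and H3K4me3, and at 1.26 (11 sites, 1.01 to 1.89) against 1.5 with H3K4me3 alone. With RNA polymerase II but no H3K4me3 it was also lower in the authors' deposited table. The values were 1.65 (119 sites) against 2.00 with H3K4me1, and 1.21 (17 sites) against 1.665 with RNA polymerase II alone.

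Within the early sites, the rate of loss followed the ratio in steps. Among early sites listed at 60 min, divided into quartiles by the ratio in the authors' deposited table, 21.9% (20.5 to 23.4%) were lost by 360 min where the ratio was 1.08 or less, 17.1% (15.7 to 18.4%) between 1.09 and 1.36, 13.5% (12.3 to 14.8%) between 1.37 and 1.75, and 10.1% (9.02 to 11.2%) at 1.76 or more. The steps were nearly the same in H3K4me1 regions (21.02%, 16.6%, 13.6% and 10.2%) and outside them (22.4%, 17.5%, 13.5% and 9.60%) by the authors' deposited table. Within each quartile the intervals in and outside H3K4me1 regions overlapped. These steps do not cover sites missing at 5 or 30 min. Where 30, 60 and 360 min were listed without 5 min, the authors' deposited table gave medians of 1.43 in H3K4me1 regions and 1.17 outside. The retained medians from the authors' deposited table were 1.54 and 1.18, and the early lost ones 1.39 and 1.08. Whether a low ratio goes with loss by 360 min or with being listed at fewer times was not tested.

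**Figure D3:**
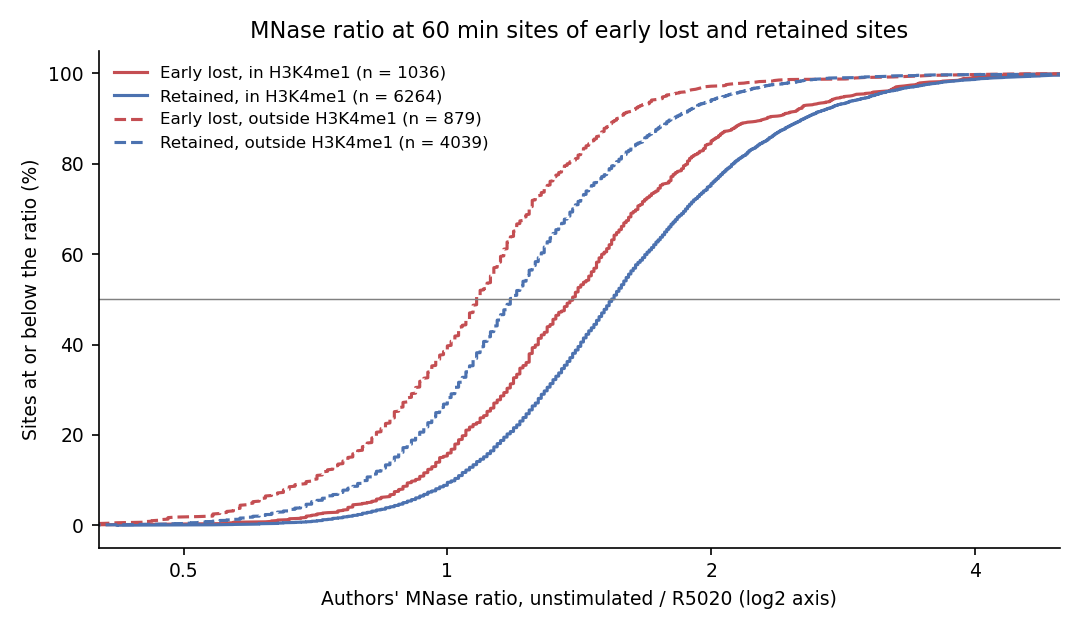
Cumulative percent of sites against the authors' MNase ratio of unstimulated to R5020 reads (log2 axis) for early lost and retained sites of the 60 min list, in H3K4me1 regions (solid lines) and outside them (dashed lines). At the 50% line the early lost curves lie at 1.39 and 1.08 and the retained curves at 1.54 and 1.18, a shift that runs along most of each curve.

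Single members spanned a wide range. Among early lost sites with at least 20 normalized reads in both conditions, the authors' deposited table gave the highest ratio, 4.59 (101 reads unstimulated and 22 after R5020), on chromosome 2 from 209120002 to 209120402, in H3K4me3 and RNA polymerase II regions. The next in the authors' deposited table were chromosome 9 from 34646730 to 34647033 (84 and 20 reads), chromosome 7 from 47674811 to 47675206 (232 and 56), chromosome 14 from 60558445 to 60558850 (213 and 52) and chromosome 6 from 36646192 to 36646412 (118 and 29). All 5 lay in RNA polymerase II regions and 4 of them in H3K4me3 regions. The lowest ratio in the authors' deposited table was 0.39 (28 and 71 reads), on chromosome 14 from 37935187 to 37935530. It was followed in the authors' deposited table by chromosome 2 from 43683409 to 43684148 (29 and 70 reads), chromosome 15 from 50882525 to 50882805 (30 and 66), chromosome 8 from 116853710 to 116854217 (50 and 110) and chromosome 3 from 85318453 to 85319089 (116 and 253). Of these 5 only the chromosome 8 site lay in a region of the chromatin lists, one of H3K4me1.

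The fourth comparison asked how the early lost sites lay relative to each other and to other PR sites. They were found near each other. Another early lost site lay within 10 kb, midpoint to midpoint, of 636 members, 19.4% (18.1 to 20.8%), against 8.99% of all merged sites, 11.55% (10.9 to 12.2%) of the retained sites and 10.3% (9.63 to 11.03%) of the sites of 5 min alone. This is a description from the lists the rule used, and members count each other, so the first interval is too narrow. A merged site of any class lay within 10 kb of 62.7% of members, 54.1% of all merged sites and 64.9% of retained sites. The share near 360 min sites was that of merged sites in general. Another merged site that held a 360 min site lay within 10 kb of 38.2% (36.6 to 39.9%) of the early lost sites, against 38.2% of all merged sites and 49.2% (48.3 to 50.2%) of the retained sites. Within H3K4me1 regions this share was 48.8% (46.4 to 51.2%) at early lost and 58.3% (57.0 to 59.5%) at retained sites, and outside them 26.6% (24.4 to 28.9%) and 35.7% (34.3 to 37.2%).

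Whether an early site was lost went with the fate of the early site next to it, over a short range. Where the nearest other early site lay under 1 kb away and was lost, 45.6% (40.5 to 50.7%) of 384 sites were lost, and where it was retained 20.4% (17.98 to 23.1%) of 1003. At 1 to 10 kb the shares were 34.6% (31.6 to 37.7%) of 942 and 19.9% (18.5 to 21.3%) of 3044. At 10 to 100 kb they were 24.5% (22.2 to 26.99%) and 22.0% (20.8 to 23.3%), and at 100 kb to 1 Mb 25.4% and 24.3%, with overlapping intervals in both. Up to 10 kb, the share beside a lost site was the higher one on all 23 chromosomes. It held in H3K4me1 regions (34.2%, 31.1 to 37.4%, against 19.1%, 17.7 to 20.5%), outside them (44.9%, 40.2 to 49.7%, against 22.7%, 20.2 to 25.4%) and among early sites listed at 60 min (27.4%, 24.8 to 30.2%, against 13.6%, 12.4 to 14.7%). Neighbouring sites can count each other, so these intervals are too narrow, and loss here is the rule's own measure, read from the same 360 min list.

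**Figure D4:**
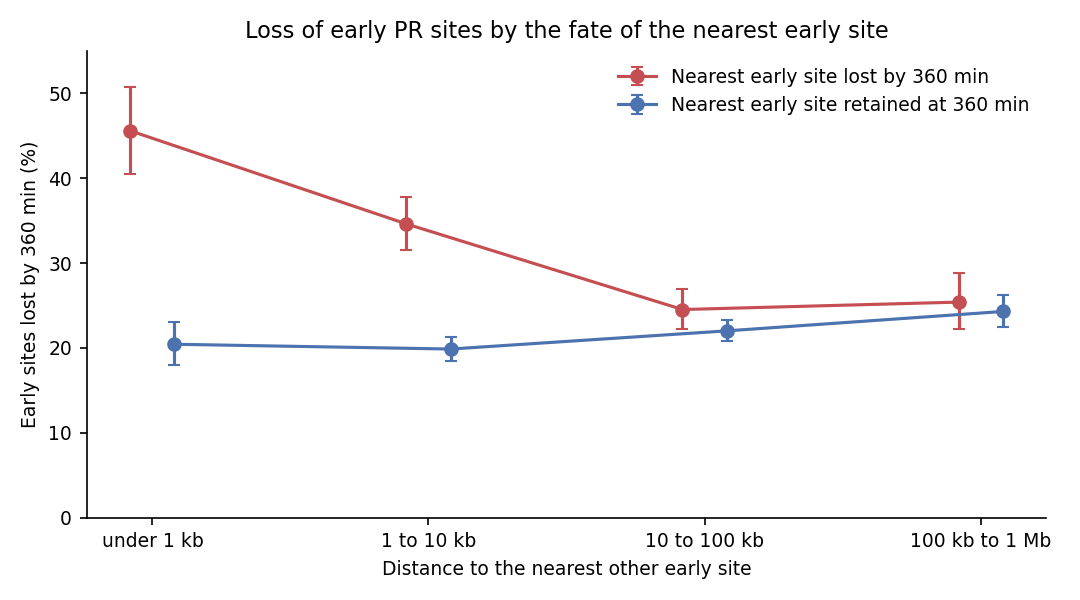
Percent of early sites lost by 360 min, by distance to the nearest other early site and by whether that neighbour was itself lost or retained (points with exact 95% intervals over sites). Beside a lost neighbour the share falls from 45.6% under 1 kb to 24.5% at 10 to 100 kb, and beside a retained neighbour it stays between 19.9% and 24.3%.

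The 1715 members in H3K4me1 regions fell in 1606 of the 73263 regions, and 110 regions held 2 or more. No other PR site of any time was listed in 905 (56.4%) of them, where the rule itself bars a 360 min site, against 60.2% of the 5328 regions with a retained site. Of the 701 regions with another PR site, 447 (63.8%) held a site listed at 360 min. The matching share for other H3K4me1 regions with several PR sites is not given here, so this value is a description only. The regions with early lost and with retained sites had nearly the same median width, 3730.5 and 3721.5 bp, against 2124 bp over all H3K4me1 regions.

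The H3K4me1 region with the most early lost sites was 432246 bp long, on chromosome 16 from 85365139 to 85797385. It held 75 merged PR sites, of which 7 were early lost, 32 retained and 48 listed at 360 min. Over the genome, 7.47% of merged sites and 23.7% of early sites were early lost. A region this long, with many PR sites, can lead by their number alone. Some of its early lost sites were neighbours. Those between 85643407 and 85644246 (839 bp at 5 min) and between 85646291 and 85646582 (204 bp) had no other merged PR site between them. The same held for those between 85779010 and 85779267 and between 85779901 and 85780235. Retained sites lay close by, as between 85649112 and 85649425, a site listed at each of the 4 times with hormone. Regions of 6617 bp on chromosome 3 (140545988 to 140552605), 7546 bp on chromosome 22 (42928883 to 42936429) and 11475 bp on chromosome 12 (93928003 to 93939478) held 3 early lost sites and no 360 min site. On chromosome 17 from 43648961 to 43655631, 3 early lost sites shared a region with 1 retained site.

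Early lost sites were found in 1533 windows of 1 Mb, 738 of which held 1 and 130 of which held 5 or more. The window with the most, between 68 and 69 Mb of chromosome 14, had 13 of its 29 early sites lost. Between 215 and 216 Mb of chromosome 1, 12 of 19 early sites were lost, 63.2%, and between 12 and 13 Mb of chromosome 6, 12 of 35. Windows with many PR sites can lead this order by their number alone, as between 116 and 117 Mb of chromosome 12, where 11 of 48 early sites were lost, 22.9%.

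By chromosome, loss ranged from 17.3% (14.4 to 20.6%) of the early sites on chromosome 17 to 29.2% (25.4 to 33.2%) on chromosome 4. On 18 of 23 chromosomes the interval included the overall 23.7%. The whole intervals of chromosomes 16, 17 and 19 were below that value, with 18.4% (15.002 to 22.2%) on chromosome 16 and 17.5% (12.7 to 23.1%) on chromosome 19. Those of chromosomes 3 and 4 were above, with 26.1% (23.7 to 28.7%) on chromosome 3. Chromosome 17 had the highest share of early lost sites in H3K4me1 regions, 79.6%, and chromosome 4 the lowest, 20%. Their retained sites had 88.6% and 22.7%. This order did not hold throughout: on chromosome 3, also above the overall rate of loss, the shares were 60.6% of early lost and 67.4% of retained sites. A relation of loss to H3K4me1 by chromosome was not tested.

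**Figure D5:**
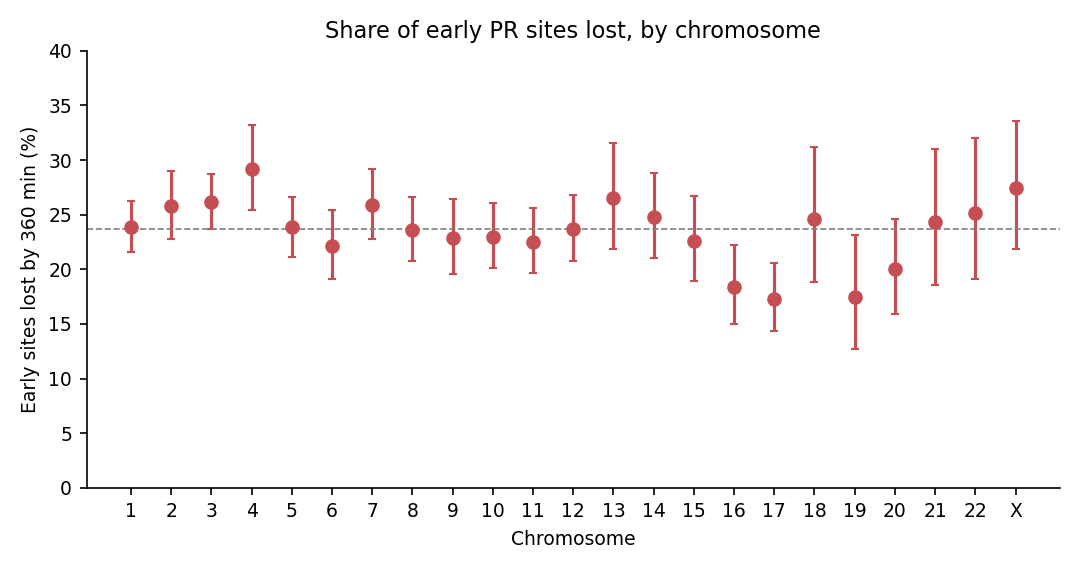
Percent of early sites lost by 360 min on each chromosome, with exact 95% intervals over sites; the dashed line is the rate over all early sites, 23.7%. Chromosomes 16, 17 and 19 lie below the line and chromosome 4 lies highest, at 29.2%.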

How the data were processed

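The lists of 5 PR samples and 3 chromatin samples were deposited by the authors as positions on hg19, a build named in the file headers and in the submitters' processing notes. No source used here names the aligner, peak caller, thresholds or depth. The authors' MNase values are normalized read numbers per 60 min site, whole numbers handled as a score. How they were normalized is not stated, and their libraries are outside the 8 samples. The authors' deposited ratio sets unstimulated reads over R5020 reads. From these, sites were merged at 1 bp overlap and classed by time, widths are end minus start, and overlap with a chromatin region means 1 bp or more. Intervals of differences between shares were built from the exact intervals of both shares, and those of medians from ranks of sites. No p-value was computed, since each group has 1 library. Members, lists and comparisons were chosen with earlier results of these data known. Named sites are the 5 widest at 5 and at 30 min in each subset, the 5 highest and 5 lowest MNase ratios with at least 20 reads in both conditions, the widest of each chromatin combination, the 3 nearest to the rule's limit on each side, and the leading H3K4me1 region and 1 Mb windows; other sites of these windows and regions were chosen after their values were seen. Sequences and genes under the sites were not analysed here. Merging and overlap were tested on simulated data. Tables were computed in Python 3.11.15 with pandas 2.3.3 and NumPy 2.4.6, intervals with SciPy 1.17.1 and plots with Matplotlib 3.10.9.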

Additional observations from a re-analysis of the deposited data

How the results depend on the processing

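Of 123 alternative values of 14 results, 96 stayed within the interval of the value reported (for the count, within 1.5 times), and all 54 alternative values of a difference between early lost and retained sites kept its sign. Of the 27 others, 10 came from taking the wider 50% of the 5, 30 and 60 min lists, with the 0 and 360 min lists kept whole. There 1032 early lost sites remained, 48.3% of them were listed at 60 min, and the difference from retained sites in that share was -24.4 points. Of these early lost sites 57.8% lay in H3K4me1, 3.49% in H3K4me3 and 10.5% in RNA polymerase II regions, and 42.6% had a 360 min site within 10 kb. Their median 5 min width was 364 bp, with a difference of -2 bp from retained sites (interval -9.62 to 6.54). The log2 MNase difference in the authors' deposited table was -0.22. This setting itself selects on width, and whether width stands for a stricter threshold was not tested. Requiring no 0 or 360 min site within 1 kb gave 49.6% in H3K4me1 regions, a difference of -10.3 points, and 30.9% with a 360 min site within 10 kb. That filter was applied to the early lost sites alone and the retained sites were kept whole, so this difference compares unlike selections. Counting midpoints placed 49.8% in H3K4me1, 3.42% in H3K4me3 and 7.06% in RNA polymerase II regions, regions within 1 kb gave 58.9%, 7.85% and 13.998%, and the wider 50% of regions 39.8%, 2.87% and 5.75%. From the authors' deposited table, the log2 MNase difference was -0.14 without the outer 5% of ratios and -0.12 outside the chromatin regions, where the early lost median was 1.08. A 360 min site lay within 10 kb of 33.5% after merging up to 500 bp apart, and within 50 kb of 71.5%. No paired analysis was possible because each group holds 1 library. The planned search for hormone response elements was not run, since no genome of the build was used here. Without depths, a site missing from a list cannot be told from a site below its threshold.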

Other observations

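Among early lost sites whose nearest early site lay within 10 kb and was also lost, 63.2% (57.5 to 68.6%) were listed at 60 min where that neighbour was, and 54.3% (47.1 to 61.4%) where it was not, with overlapping intervals. Of the 1376 members not listed at 60 min, 210 had a 60 min site within 1 kb and 611 within 10 kb. At members listed at 60 min, the 60 min site was wider than the 30 min site at 59.1% of sites, with a median difference of 17 bp, and at retained sites at 49.6%, with a median difference of 0 bp. H3K4me3 regions were farther from early lost sites than from retained ones, with a median distance of 48749 against 34798 bp and 42892.5 bp over all merged sites. For RNA polymerase II the medians were 40443.5, 29934 and 44494.5 bp.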
